A study of Mus musculus with 550 samples.

Results

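Transcript levels of 10 genes that regulate growth of the early embryo were followed in single cells of differentiating embryoid bodies (EBs): Lin28a, Lin28b, Trim71, L1td1, Prtg, Igf2bp1, Hmga1, Hmga2, Myc and Mycn. They are 10 of the 55228 gene names in the count table. The genes were chosen by their day and genotype differences in CPM (read counts scaled to the same library total) in these same cells, so every value here describes the libraries and no test was made on it. Counts were read in all single cells with at least 50000 reads, at least 2000 detected genes and at most 50% mitochondrial reads, which left 486 of 550 cells.

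EBs were grown for 3 or 9 days, without LIF, from E14 mouse embryonic stem cells (strain 129/Ola) that were wild type (WT), Dnmt3a -/- (3AKO) or Dnmt3b -/- (3BKO). DNMT3A and DNMT3B place new methyl groups on DNA, and the comparison asks how the loss of either enzyme changes differentiation. EBs of many wells were pooled before sorting, and more than 1 clone of each mutant was used, but the labels do not say which clone a cell came from. Each of the 6 groups was therefore handled as 1 sample, and the library batches 1 and 2 named in the labels were computed separately to show the spread. By the plate numbers in the labels, WT, 3AKO and 3BKO at day 9 each came from 1 plate (234, 236 and 238). Both batches of each of these groups shared that plate. Day 3 cells came from other plates (209, 210 and 211). Genotype at day 9, and day, therefore cannot be told apart from plate, and agreement between batches does not separate them. At day 9, WT, 3AKO and 3BKO had 89, 88 and 67 kept cells, and at day 3 they had 79, 83 and 80. The filter removed 26 of 93 3BKO cells at day 9, against 2 of 91 WT and 5 of 93 3AKO cells. In batch 2 at day 9 the kept cells had a median of 692321 reads in 3BKO, 374958 in WT and 308227 in 3AKO.

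The targeted genes were read to check the labels. At day 9 Dnmt3a was at 26.1 and 23.9 CPM in the 3AKO batches against 177 and 144 in WT, and Dnmt3b was at 15.9 and 16.8 CPM in the 3BKO batches against 155 and 189 in WT. Dnmt3a was also lower than in WT in 3BKO at day 9, at 84.1 and 44.8 CPM. At day 3 batch 1 Dnmt3a was at 25.8 CPM under label 3AKO against 455 in WT, and Dnmt3b at 167 CPM under label 3BKO against 600 in WT. Dnmt3b was also below WT under label 3AKO in that batch, at 261 CPM, so at day 3 it marks 3BKO less clearly. In day 3 batch 2 Dnmt3a was at 335 CPM in the library labelled 3AKO and at 12.8 CPM in the library labelled 3BKO, which goes against these labels. Dnmt3b was at 85.1 and 185 CPM in the same libraries against 523 in WT. By plate, Dnmt3a was at 587 and 335 CPM in batches 1 and 2 of plate 210, and at 25.8 and 12.8 CPM in those of plate 211. Plate 210 carried label 3BKO in batch 1 and label 3AKO in batch 2, and plate 211 the reverse. Day 3 values pooled under a mutant label therefore draw on both plates and may mix the 2 knockouts. An exchange of the batch 2 labels was not tested. Both libraries are kept under their labels below, and each day 3 mutant level in CPM is given by batch so that batch 1 can be read alone.

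The 10 genes meet in a small set of pathways. LIN28A and LIN28B are RNA-binding proteins that block the maturation of let-7, a microRNA family which rises as embryonic cells differentiate and in turn represses Lin28a, Lin28b, Trim71, Igf2bp1 and Hmga2. TRIM71 is a ubiquitin ligase that also binds and represses messenger RNAs in stem cells, IGF2BP1 stabilises messenger RNAs of growth genes, and L1TD1 is an RNA-binding protein of pluripotent cells that derives from a LINE-1 open reading frame. PRTG (protogenin) is a cell-surface receptor of the immunoglobulin superfamily found in the epiblast and early neural plate. HMGA1 and HMGA2 are AT-hook proteins that bend chromatin, and MYC and MYCN are transcription factors that pair with MAX to drive ribosome production and the cell cycle.

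Most of the genes have a let-7 seed match in the 3′ UTR. Lin28a, Lin28b, Trim71, Igf2bp1 and Hmga2 are known let-7 targets, as given above. The share of the set with a match is therefore a description and is not read as a result. In the RefSeq mouse set (GRCm38.p6), 10 of 11 let-7 family names carried the seed GAGGUAG at bases 2 to 8. Printed below are 3 of them with the seed in capitals, to show how alike the seeds are while the 3′ ends differ.
let-7a-5p: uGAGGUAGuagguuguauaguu
let-7g-5p: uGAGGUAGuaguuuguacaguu
miR-98-5p: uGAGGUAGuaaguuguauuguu

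The reverse complement of that seed, CTACCTC, was searched on the transcribed strand of the longest annotated 3′ UTR of each gene (GENCODE vM21, GRCm38, the source of all gene coordinates and exon lengths here). It was found in 7 of the 10 genes and in 9.02% of 20990 genes with a 3′ UTR. Lin28b, Trim71, Igf2bp1 and Hmga2 held 4 matches each, a number reached by 0.0572% of all genes. Among genes with 3′ UTRs within 20% of the length of each, that number was reached by 0.236%, 0.505%, 0.355% and 0.134%. Lin28a and Prtg held 2 and Hmga1 held 1, while L1td1, Myc and Mycn, whose 3′ UTRs of 364, 466 and 913 bases were shorter than the genome median of 961, held none. UTR length moves with these counts: among genes with 3′ UTRs within 20% of the length of that gene, 33.6% held a match for Igf2bp1 and 2.90% for L1td1. The windows below show the matches nearest the stop codon for the genes described most closely here, with the matched bases in capitals (CTACCTC, or CTACCTCA where an A follows).
Lin28a site 1 (chr4:134005181-134005204, minus strand): ctgttgaaCTACCTCAtttttgcc
Lin28b site 1 (chr10:45381014-45381037, minus strand): cgggaagtCTACCTCAtgcaagca
Trim71 site 1 (chr9:114512464-114512487, minus strand): cctaagtcCTACCTCAgcttaaat
Trim71 site 2 (chr9:114512368-114512391, minus strand): atttctatCTACCTCAactctttg
Igf2bp1 site 1 (chr11:95961770-95961793, minus strand): gaagtaaaCTACCTCAaggtgtga
Igf2bp1 site 2 (chr11:95959349-95959372, minus strand): gctattaaCTACCTCAgccccaga
Prtg site 1 (chr9:72912565-72912588, plus strand): ctgaatagCTACCTCAgtttgctg
Prtg site 2 (chr9:72913995-72914018, plus strand): tgtttataCTACCTCctttttaaa
Hmga1 site 1 (chr17:27563284-27563307, plus strand): ttcacaaaCTACCTCtggacggtt
Hmga2 site 1 (chr10:120364216-120364239, minus strand): ttcaatttCTACCTCAgcatcagt
All 4 matches of Trim71 and both of Lin28a were followed by an A, a base that raises repression in general. A match of this kind describes the letters in the transcript and is not a measured binding site, and mature let-7 was not measured in these poly(A) libraries.

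Depth set the precision of the sums. Kept cells had 54720 to 1450202 assigned reads, and the 12 genotype, day and batch libraries summed to between 8071118 and 22867811 reads. No cell column was identical to another. In 3BKO EBs at day 9 the naive and primed marker lists both differed from WT. The 12 naive markers summed to 6162 and 4239 CPM in batches 1 and 2 against 2599 and 2147 in WT and 1978 and 1280 in 3AKO. The 10 primed epiblast markers summed to 1873 and 1178 CPM in 3BKO, 2821 and 1425 in WT and 2320 and 2577 in 3AKO. Of 8 primed epiblast markers past detection, 1 was called higher in 3BKO than in WT (Nodal, log2 ratio 1.49) and 4 lower (Sall2, -4.71; Pim2, -4.69; Fgf5, -4.32; Trh, -1.60). The rule for a call is given below, and over all genes it called 2.86% higher and 4.98% lower. Meso-endoderm markers were low in every library, between 6.20 and 131 CPM over 12 genes. Neural ectoderm markers summed to 320 and 213 CPM in the 3BKO batches and to 305 and 209 CPM in WT. Of 4 of them past detection, 0 were called higher and 1 lower (Sox11, log2 ratio -2.04), beside the same shares over all genes. Sox1, Olig3 and Fabp7 were at 0 reads in both 3BKO batches and had reads in both WT batches, while Hes5 and Neurog2 were at 0 in WT as well.

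Compared per length, in CPM per kilobase of exon, the genes covered a wide range. In WT at day 3 the order of levels was L1td1 (90.2), Mycn (56.2), Hmga1 (52.6), Igf2bp1 (31), Myc (27.3), Lin28a (6.54), Trim71 (6.02), Lin28b (1.93), Prtg (1.745) and Hmga2 (0.247). In WT at day 9 Mycn (53.8) and Hmga1 (38.9) led, L1td1 was at 27.2 and Igf2bp1 at 6.44. Prtg (2.41), Lin28a (2.57) and Lin28b (2.74) then lay close together, and their batch values overlapped. A typical cell showed several of the genes at the same time: with every cell thinned to 50000 reads, the median number of the 10 genes with a read was 7 in each day 3 group, 5 in WT and 3AKO at day 9 and 4 in 3BKO at day 9. The share of thinned cells with a read was lower at day 9 than at day 3 for all 10 genes under all 3 genotype labels with both batches together. In batch 1 alone there were 2 exceptions, Lin28b under label 3AKO (22.41% at day 3 and 22.95% at day 9) and Hmga2 under label 3BKO (3.70% and 6.52%). In batch 2 alone the exceptions in WT were Lin28b (36% and 41.4%) and Mycn (76% and 86.2%). Under label 3AKO in batch 2 the exception was Prtg (24% and 33.3%). The median number of genes of any kind detected per cell was also lower at day 9, between 5652 and 5903.5 in the 3 groups against 7105 to 7267 at day 3, and its part in these shares was not tested.

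Igf2bp1, L1td1 and Trim71 were lower in every one of the 6 day 9 libraries than in any of the 6 day 3 libraries, whatever the genotype label, so this order does not rest on the doubted labels. Over all 12627 genes detected in at least 20% of cells of any library, 1.28% had all day 9 libraries below all day 3 libraries and 2.44% had them above. None of the 10 genes lay above, and the other 7 overlapped. A gene was called in a comparison on 2 conditions: a read in 20% or more of the cells of one of the compared groups, batch by batch, and a log2 ratio of CPM + 1 of size 1 or more, with the same sign, in each of batch 1 and batch 2. In WT this called 0 of the 10 genes higher at day 9 and 2 lower, L1td1 and Igf2bp1, beside 5.25% of 10162 genes higher and 2.19% lower. Under label 3AKO it called 0 higher and 3 lower (L1td1, Igf2bp1 and Trim71; all genes 2.57% and 3.11%). Under label 3BKO it called 0 higher and 3 lower (L1td1, Lin28a and Prtg; all genes 6.77% and 5.59%). Hmga2 did not pass detection in any of these comparisons. The median log2 ratio over all genes past detection was 0.19 in the WT comparison, 0.05 under label 3AKO and 0.05 under label 3BKO.

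**Figure D1:**
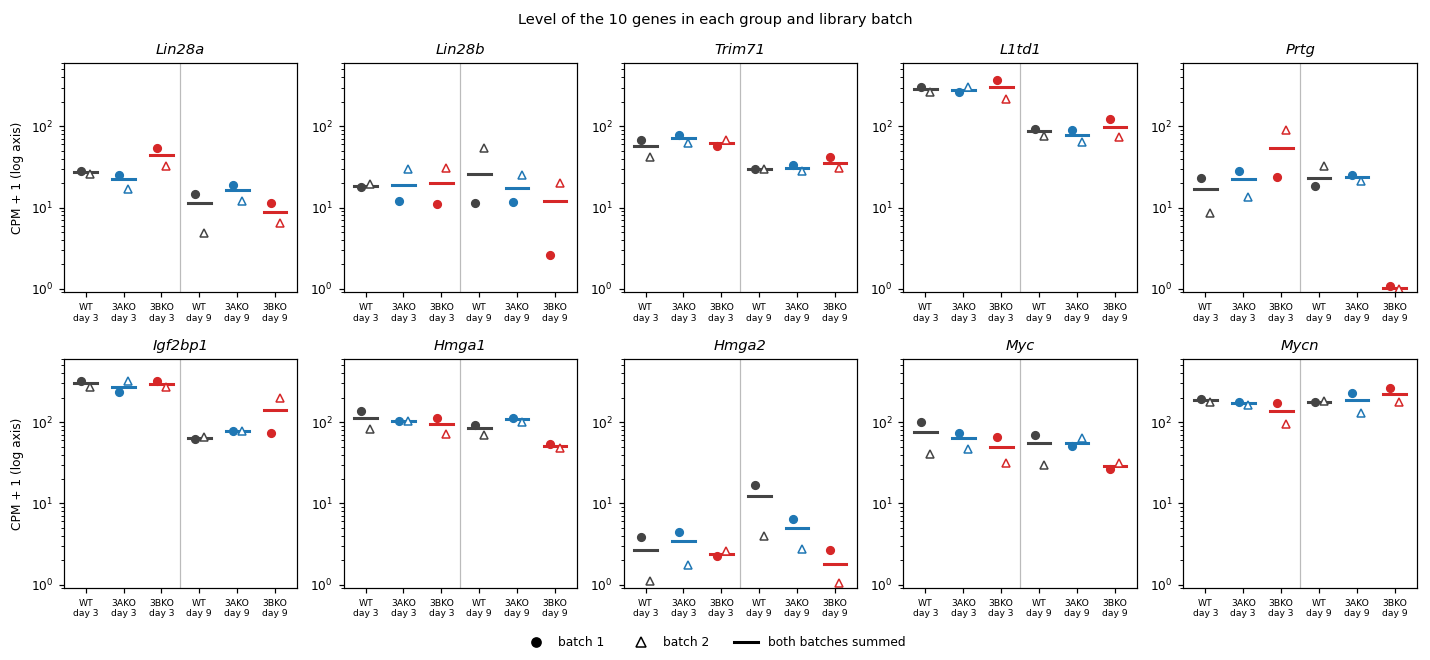
Level of each gene as CPM + 1 on a log axis in the 6 groups; circles are batch 1, triangles batch 2 and bars both batches summed, with day 3 to the left of the grey line. Igf2bp1, L1td1 and Trim71 lie lower at day 9 in all libraries, and Prtg lies at the bottom of the axis in 3BKO at day 9 (0.0330 CPM); the day 3 batch 2 mutant labels are in doubt.

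Igf2bp1 (chr11:95957163-96005940), which protects growth messenger RNAs from decay, fell by 2.25 on the log2 scale in WT, from 300.1 CPM (321 in batch 1, 272 in batch 2) at day 3 to 62.3 CPM (60.8 and 65.3) at day 9. Each batch showed it, with log2 ratios of -2.38 and -2.04. At day 3 the libraries labelled 3AKO held 238 and 317 CPM and those labelled 3BKO 319 and 268 CPM, so that both labels overlapped with WT. At day 9 3AKO held 77.8 and 77.5 CPM, and 3BKO held 72.1 CPM in batch 1 and 196 CPM in batch 2. The batches of 3BKO therefore disagreed at day 9. In batch 2, 1 cell with 1302 reads carried 31% of all Igf2bp1 reads of 3BKO at day 9, but the gap was not in that cell alone. The single-cell median of 3BKO was 43.1 CPM in batch 1 and 91.4 CPM in batch 2, against 27.2 and 37.2 CPM in WT. Without the top cell of each group the log2 ratio of 3BKO to WT was 0.73, against 1.14 with it. With both batches together the single-cell medians at day 9 were 30 CPM in WT, 63.8 CPM in 3AKO and 48.9 CPM in 3BKO.

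L1td1 (chr4:98726734-98738480) had like levels in the 3 genotypes. In WT it was at 286 CPM (305 and 261) at day 3 and at 86.4 CPM (92.4 and 74.9) at day 9, which is 3.31-fold lower. At day 9 it was at 78.1 CPM (88.1 and 63.9) in 3AKO and at 95.7 CPM (121 and 73.7) in 3BKO, and the batch values of the 3 groups overlapped. At day 3 the libraries labelled 3AKO held 266 and 300 CPM and those labelled 3BKO 372 and 219 CPM. Every WT cell at day 3 kept an L1td1 read after thinning (100% of 79 cells, exact 95% interval 95.4 to 100%), whereas 76.4% (66.2 to 84.8) did at day 9.

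Trim71 (chr9:114507133-114564369), the RNA-binding ubiquitin ligase, was at 56.2 CPM (67.4 and 41.3) in WT at day 3 and at 28.5 CPM (28.5 and 28.7) at day 9. The log2 ratios of -1.21 and -0.51 fell on both sides of the threshold of 1, so the gene was not called in WT. At day 9 3AKO held 29.9 CPM (31.96 and 26.96) and 3BKO 34.6 CPM (40.7 and 29.2). The 3AKO batches lay on both sides of WT, and both 3BKO batches lay above WT, in batch 2 by 0.03 on the log2 scale. The thinned share of cells with a read moved from 78.5% (67.8 to 86.9) in WT at day 3 to 40.4% (30.2 to 51.4) at day 9, and was 46.6% (35.9 to 57.5) in 3AKO and 53.7% (41.1 to 66) in 3BKO.

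Lin28a and Lin28b are paralogues. Lin28a (chr4:134003330-134018841), the form most known from pluripotent cells, was at 26.1 CPM (26.8 and 25.2) in WT at day 3 and at 10.3 CPM (13.6 and 3.85) at day 9. The batch log2 ratios of -0.93 and -2.43 kept it below the call in WT, where it was called with TMM factors, with median-ratio size factors and with mitochondrial genes left out of the denominator. The libraries labelled 3BKO held the highest day 3 levels (53.1 and 31.7 CPM, with 39.4% of the batch 1 reads in 1 cell), and 3BKO at day 9 the lowest pooled level, 7.79 CPM (10.4 and 5.54). From day 3 to day 9 label 3BKO gave log2 ratios of -2.25 in batch 1 and -2.32 in batch 2. At day 9 the thinned share of cells with a Lin28a read was 23.6% (15.2 to 33.8) in WT, 37.5% (27.4 to 48.5) in 3AKO and 13.4% (6.33 to 24) in 3BKO. These intervals cover counting error over the cells of 1 sample per group and do not test the genotypes.

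Lin28b (chr10:45376620-45486395), which blocks let-7 maturation mainly in the nucleus, was at 17.5 CPM (16.9 and 18.3) in WT at day 3 and 24.8 CPM (10.5 and 52.4) at day 9. The direction differed between the batches, with log2 ratios of -0.64 and 1.47. At day 9 3AKO held 16.2 CPM (10.5 and 24.2) and 3BKO 10.99 CPM (1.64 and 19.1). Lin28b was called lower in 3BKO than in WT, with log2 ratios of -2.12 and -1.41 in the batches and -1.11 over both. In 3BKO 1 cell in batch 2 held 270 of the 333 reads (81.1%), and without the top cell of each group the log2 ratio was -2.88. In the thinned cells, 5.97% of 3BKO cells (1.65 to 14.6) had a read against 26.97% in WT (18.1 to 37.4) and 21.6% in 3AKO (13.5 to 31.6). With cells thinned before summing, with a pseudocount of 10 CPM or with detection in 40% of cells, Lin28b was not called.

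At day 9 the mutants were compared with WT and with each other, each group coming from its own plate. In 3AKO against WT, 0 of the 9 genes past detection were called in either direction, beside 1.07% of 9201 genes higher and 1.59% lower. In 3BKO against WT, 0 were higher and 2 lower, Prtg and Lin28b (all genes 2.86% higher and 4.98% lower). In 3BKO against 3AKO, 0 were higher and 2 lower, Prtg and Hmga1 (all genes 4.56% higher and 4.91% lower). Both mutants were set against the same WT cells, so the pair of WT comparisons is not independent. The median log2 ratio of the 9 genes was 0.06 in 3AKO and -0.36 in 3BKO, beside -0.10 and -0.08 over all genes past detection.

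**Figure D2:**
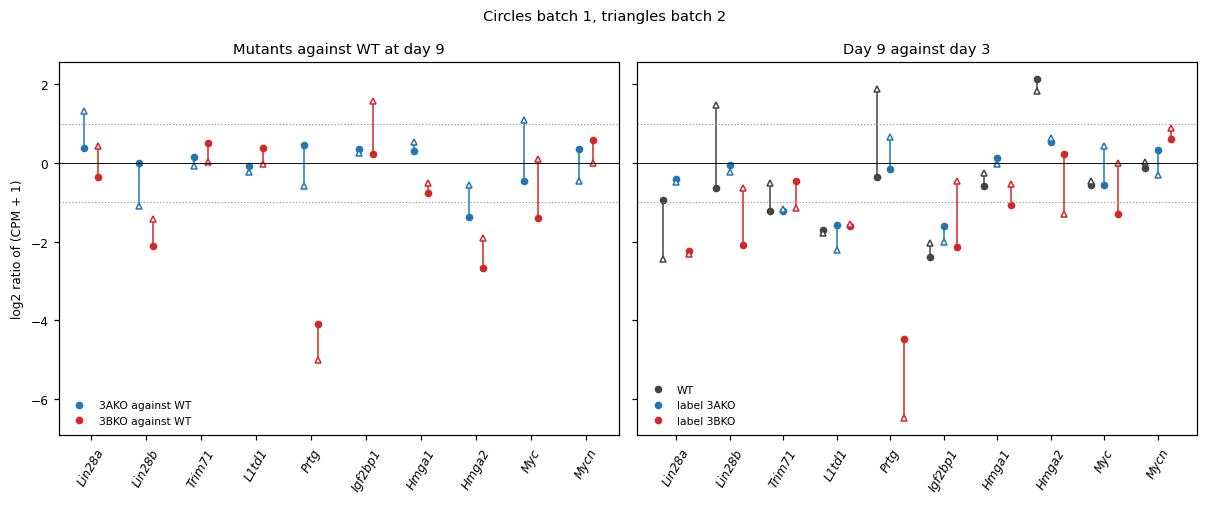
Log2 ratio of CPM + 1 for each gene, mutants against WT at day 9 (left) and day 9 against day 3 (right); circles are batch 1, triangles batch 2, lines join the batches and dotted lines mark a ratio of 1 in size. Prtg in 3BKO lies at -4.10 and -5.002 against WT, Lin28b in 3BKO lies below the lower dotted line in both batches, and many other genes have batches on both sides of 0.

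Prtg (chr9:72806874-72917291) showed the largest log2 ratio of the set among the day 9 comparisons. It was at 22.03 CPM (17.3 and 31.04) in WT and at 22.7 CPM (24.4 and 20.3) in 3AKO at day 9. In 3BKO at day 9 a total of 1 read was found among 30287278, which is 0.0330 CPM (Poisson 95% interval 0.000836 to 0.184 CPM). WT was 667 times higher than 3BKO by the ratio of CPM, with a counting interval of 119 to 26384. Reads of this protocol carry no molecular identifiers, so these intervals cover counting error alone. Prtg was not called against WT with cells thinned to 50000 reads or with detection in 40% of cells. In both cases too few cells had a read for it to pass detection. Against 3AKO it was called with thinned cells and not with detection in 40% of cells. On log2(CPM + 1), which understates changes of low genes, the ratio was -4.48 against WT and -4.52 against 3AKO.

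Prtg reads were also spread over many cells outside 3BKO. In the unthinned libraries 26.97% of WT cells and 42.05% of 3AKO cells had a read at day 9, against 1 of 67 cells (1.49%) in 3BKO. After thinning, 15.7% of WT cells (8.88 to 25) and 28.4% of 3AKO cells (19.3 to 39) had one, and 0 of 67 cells in 3BKO did. The exact upper limit of that share is 5.36%, and 3 counts, the limit used for a count of 0, would be 4.48%. In WT batch 2, 1 cell held 52.3% of the Prtg reads. The day 3 libraries all had Prtg reads. Under label 3BKO at day 3 Prtg was at 22.6 CPM in batch 1, close to the 22.2 CPM of WT batch 1, and at 89.01 CPM in batch 2, where 1 cell held 55.5% of the reads. Under label 3AKO it was at 27.3 and 12.5 CPM, and in WT batch 2 at 7.68 CPM. In batch 1, where the labels match Dnmt3a, the log2 ratio of day 9 to day 3 under label 3BKO was -4.46. The naive and primed markers given above moved with the low Prtg count in 3BKO, and their part in it was not tested.

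**Figure D3:**
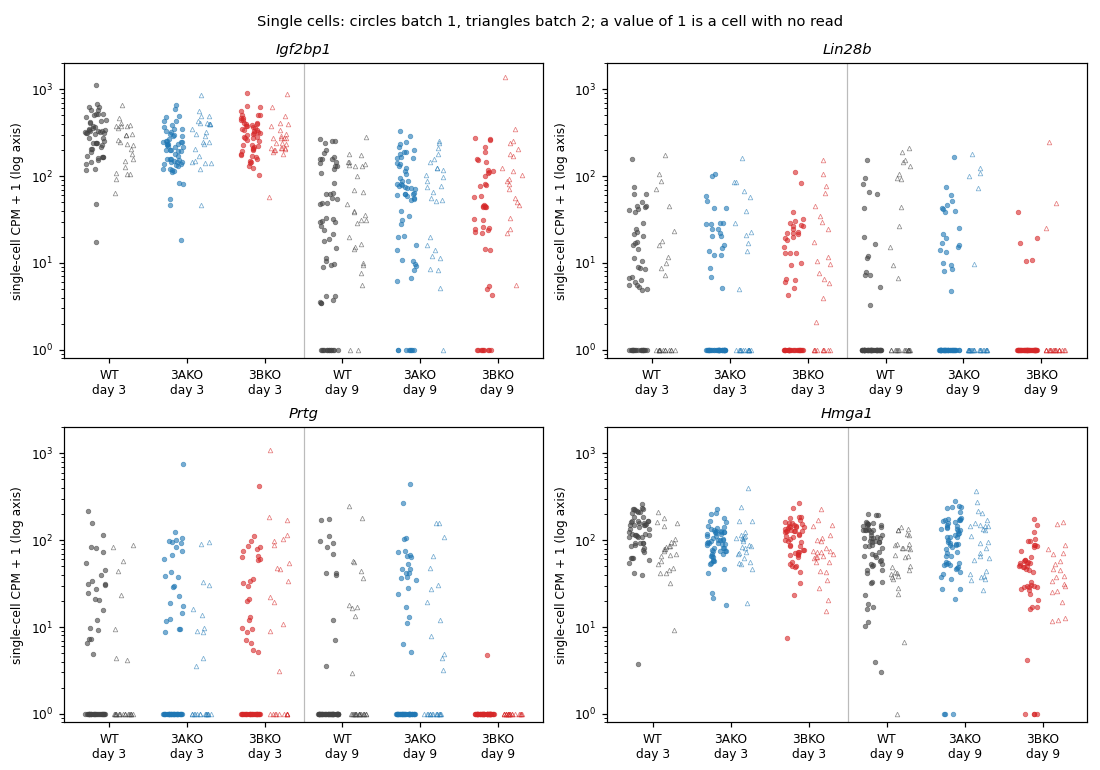
Single-cell levels of Igf2bp1, Lin28b, Prtg and Hmga1 as CPM + 1 on a log axis, 1 point per kept cell, circles for batch 1 and triangles for batch 2; points at 1 are cells with no read. Prtg has reads in 1 of 67 cells of 3BKO at day 9. A few high cells carry much of several sums, as for Lin28b (87.1% in 1 cell) and Igf2bp1 (40.9%) in 3BKO at day 9 batch 2.

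Hmga1 (chr17:27556497-27563674), an AT-hook protein of proliferating embryonic cells, was at 82.7 CPM (90.5 and 67.8) in WT, 107 CPM (113 and 99.6) in 3AKO and 50.3 CPM (53.3 and 47.6) in 3BKO at day 9. The batch values of 3BKO lay below those of WT, and those of 3AKO above them. Against 3AKO the 3BKO log2 ratios were -1.07 and -1.05, just past the threshold of 1, and the call was lost with TMM factors, median-ratio size factors or a pseudocount of 10 CPM. Against WT the 3BKO ratios were -0.75 and -0.50 and the 3AKO ratios 0.31 and 0.55, none of which was called. In 3BKO 17.9% of cells were above the WT median of their batch, compared with 54.5% in 3AKO. Reads of Hmga1 are uncertain because it has a near-identical copy, Hmga1b, and reads that mapped to more than 1 place were not counted. Hmga1b was at 39.1 CPM in 3BKO and 99.6 CPM in 3AKO and was called lower too (log2 ratio -1.33). At day 3 Hmga1 was at 135 and 80.7 CPM in WT, 102 and 101 CPM under label 3AKO and 113 and 69.7 CPM under label 3BKO.

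Hmga2 (chr10:120361275-120476469) was rare and uneven. It passed detection in none of the 8 comparisons, and its pooled level ranged from 0.792 CPM in 3BKO at day 9 to 11.5 CPM in WT at day 9. In that WT group 7 of 89 cells had a read and 1 cell held 51.5% of them. Those 7 cells were looked at after their values had been seen. Of these, 3 had a Gata4 read, against 0 of the 82 other cells (3 counts, the limit used for a count of 0, would be 3.66%), and 3 had a Sox17 read, against 1 of 82. Igf2, a growth factor of extra-embryonic and mesodermal tissue, had a read in 4 of the 7 and in 4 of the 82. Pou5f1, a core pluripotency factor, had a read in 3 of the 7 and in 74 of the 82. The thinned share of cells with a Hmga2 read was 5.62% (1.85 to 12.6) in WT, 5.68% (1.87 to 12.8) in 3AKO and 4.48% (0.933 to 12.5) in 3BKO at day 9.

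Among the MYC genes, Mycn (chr12:12936093-12941914) was the steadier. It was at 177 CPM (177 and 179) in WT, 186 CPM (225 and 130.4) in 3AKO and 218 CPM (265 and 178) in 3BKO at day 9, and the batch values overlapped throughout. At day 3 it was at 185 CPM (193 and 174) in WT, at 179 and 160 CPM under label 3AKO, and at 173 and 94.99 CPM under label 3BKO. Its log2 ratio of day 9 to day 3 in WT was -0.13 in batch 1 and 0.04 in batch 2. In thinned cells 78.7% of WT (68.7 to 86.6), 80.7% of 3AKO (70.9 to 88.3) and 71.6% of 3BKO cells (59.3 to 82) had a Mycn read at day 9.

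Myc (chr15:61985391-61990374) had a lower sum in 3BKO, but not in both batches. It was at 54.4 CPM (68.04 and 28.4) in WT, 54.5 CPM (49.2 and 62) in 3AKO and 28.2 CPM (25.4 and 30.6) in 3BKO at day 9. Against WT the 3BKO log2 ratio was -1.39 in batch 1 and 0.10 in batch 2, so no direction held. Against 3AKO it was -0.93 and -0.99, under the threshold of 1 in both batches. The thinned share of cells with a read was 35.96% (26.1 to 46.8) in WT, 43.2% (32.7 to 54.2) in 3AKO and 22.4% (13.1 to 34.2) in 3BKO at day 9. At day 3 it was 73.4% (62.3 to 82.7) in WT, 65.1% (53.8 to 75.2) under label 3AKO and 58.8% (47.2 to 69.6) under label 3BKO, and in batch 1 alone 75.9%, 67.2% and 64.8%. The WT sum was 74.1 CPM (100.3 and 39.3) at day 3, so in WT the share of cells with Myc differed more between the days than the summed level did.

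**Figure D4:**
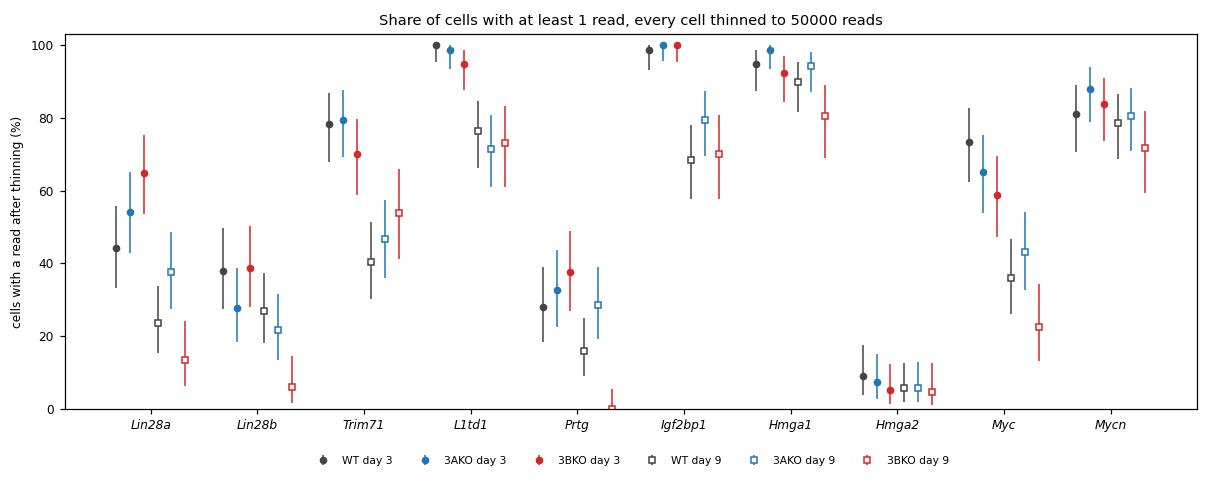
Share of cells with at least 1 read of each gene after thinning every cell to 50000 reads, in percent; filled circles are day 3, open squares day 9, and bars are exact 95% binomial intervals over the kept cells of both batches. With both batches together the share is lower at day 9 for all 10 genes under all 3 genotype labels, with wide overlap of the intervals for some (Hmga2, Mycn), and Prtg is at 0 in 3BKO at day 9.

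At day 3 the mutant labels were compared with WT. None of the 9 genes past detection was called under label 3AKO, beside 0.869% of 10362 genes higher and 0.347% lower, and none under label 3BKO, beside 0.664% of 10236 genes higher and 0.42% lower. In batch 1, the batch whose labels match Dnmt3a, the log2 ratios of the 10 genes to WT ran from -0.59 (Lin28b) to 0.28 (Prtg) under label 3AKO and from -0.78 (Hmga2) to 0.96 (Lin28a) under label 3BKO. In batch 2 the ratio of Prtg under label 3BKO was 3.37, the largest of that batch, with 1 cell carrying most of it as given above.

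Genes with and without a let-7 seed match were set side by side. In WT, 4 of the 7 genes with a match were lower at day 9 than at day 3 in both batches, 1 (Hmga2) was higher in both and 2 (Lin28b and Prtg) changed sign. Of the 3 without a match, 2 (L1td1 and Myc) were lower in both batches and 1 (Mycn) changed sign. In 3BKO against WT at day 9, 4 of the 7 were lower in both batches (Lin28b, Prtg, Hmga1 and Hmga2), 2 were higher (Trim71 and Igf2bp1) and 1 (Lin28a) changed sign. The 3 without a match all changed sign between the batches, and the median log2 ratio was -0.71 with a match and 0.15 without. In 3BKO against 3AKO, 5 of the 7 were lower in both batches and 1 higher, against 1 lower and 2 higher of the 3 without, with medians of -0.89 and 0.23. Hmga2 is in these counts and medians although it passed detection in no comparison. It had 1 read in WT at day 3 batch 2 and 1 read in 3BKO at day 9 batch 2. The 7 include Prtg, Lin28b and Hmga1, which were chosen for such differences, so nothing is read from these counts.

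Promoter sequence was compared for the 8 genes with an entry in the RefSeq promoter table (250 bases before to 50 after the start, GRCm38.p6). The Prtg window held 35 CpG dinucleotides, the target of DNA methylation, a number reached by 7.76% of all promoters. Hmga1 held 40 and 38 at its annotated starts, Trim71 held 19, L1td1 and Mycn 14, Hmga2 12, Lin28a 10 and Lin28b 8, the last being the median of all 27025 genes. The E-box CACGTG, which MYC and MAX can bind, was present 1 time in the Lin28b window and in 7.40% of all promoters. These are counts of letters, and DNA methylation was not read in these cells.

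The wider pathways were described with fixed gene lists, whose counts are read beside the shares over all genes (2.86% higher and 4.98% lower in 3BKO against WT, 1.07% and 1.59% in 3AKO against WT). Of 14 let-7 pathway partners found in the table (the processing enzymes and Argonautes), 12 were past detection at day 9 and 0 were called higher and 2 lower in 3BKO against WT: Prkra, a partner of Dicer, was at 12.45 CPM against 87.99 (log2 ratio -2.73), and Ago2, which carries the mature microRNA, at 13.2 CPM against 47.1 (-1.76). In 3AKO against WT none was called. The median log2 ratio of these 12 was -0.09 in 3BKO against WT (0.03 in batch 1 and -0.41 in batch 2), beside -0.08 over all genes. Of the 12, 5 were above 0 and 7 below. In 3BKO against 3AKO the median was 0.45 (0.11 and -0.03 in the batches), with the same 2 called lower (all genes 4.91% lower). Of 26 let-7 targets and oncofetal genes outside the set, 17 were past detection and 0 were higher and 3 lower in 3BKO, among them the cell-cycle genes Cdk6 (2.94 CPM against 24.9, log2 ratio -2.72) and Ccnd2 (12.7 against 86.3, -2.67). The median log2 ratio of this list was -0.61 in 3BKO against WT and -0.05 in 3AKO against WT, beside medians over all genes of -0.08 and -0.10.

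Of 18 Myc network partners, 12 were past detection in 3BKO against WT, with 1 called higher and 0 lower. The one called was Fbxw7, a ubiquitin ligase that marks MYC for destruction, at 36.15 CPM in 3BKO and 6.12 CPM in WT (log2 ratio 2.38). It was called higher in 3AKO too, at 23.7 CPM (1.79). Of 27 Myc-responsive growth genes, mostly of ribosome production, 26 were past detection in 3BKO against WT and 27 in 3AKO against WT. In these comparisons 0 were called in either direction (medians -0.16 and 0.03). From day 3 to day 9 in WT, 0 of the 27 were higher and 1 lower, beside 2.19% of all genes lower: Odc1, the first enzyme of polyamine synthesis, at 141 CPM against 444 (log2 ratio -1.65). The median of that list was -0.30 beside 0.19 over all genes. Of 18 growth-linked partners of the set, 14 were past detection and 0 were called in 3BKO against WT (median -0.56). In 3BKO against 3AKO, with 14 past detection, Hmgb3 and Hmga1b were called lower (log2 ratios -1.86 and -1.33), beside 4.91% of all genes.

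**Figure D5:**
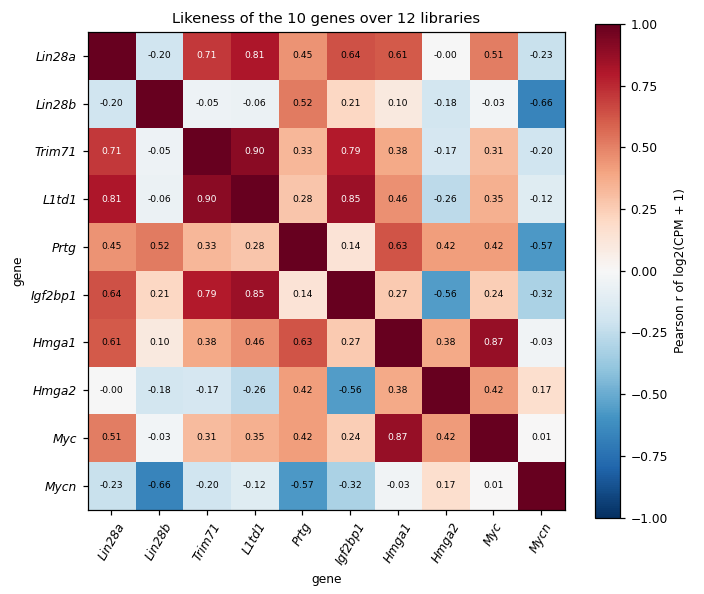
Pearson r of log2(CPM + 1) between each pair of the 10 genes over the 12 genotype, day and batch libraries, coloured from -1 (blue) to 1 (red). Trim71, L1td1, Igf2bp1 and Lin28a form a block with r between 0.637 and 0.902, Hmga1 and Myc have an r of 0.873, and Lin28b and Mycn have an r of -0.657. The libraries span both days and the genes were chosen by day and genotype differences, so nothing is read from the block.

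Likeness between the genes was measured over the 12 libraries, which share plates, batches and depth, so r is a description with no test. The libraries span both days and the genes were chosen by day and genotype differences. A high r between genes that differ between the days therefore follows in part from that choice. The highest r was between Trim71 and L1td1 (0.902), then Hmga1 and Myc (0.873) and L1td1 and Igf2bp1 (0.853). Lin28a and Lin28b had an r of -0.198, and Myc and Mycn an r near 0. Among 10776 other named genes, Trim71 was most like Lasp1 (0.969) and Ap2a1 (0.943), and L1td1 most like Ewsr1 (0.976) and Lmnb1 (0.972). Prtg was most like Cnpy1 (0.932), Bahcc1 (0.909) and Ptpra (0.905), and Igf2bp1 most like Vapb (0.934), Cdk12 (0.911) and Rrs1 (0.898). Hmga1 was most like Rrp1 (0.953), Hmga1b (0.946) and Pes1 (0.945), and Myc most like Vac14 (0.929), Wdr34 (0.928) and Tbrg4 (0.925). Mycn was most like Rilpl2 (0.957) and Psmd11 (0.903). Lin28a was most like Lefty1 (0.908), Sipa1l3 (0.895) and Smarcc2 (0.892), and Lin28b most like Marcks (0.915), Zfp606 (0.905) and Zfp367 (0.905). Hmga2, which passed detection in none of the 8 comparisons, was most like Adat2 (0.912), Cox6c (0.910) and AA465934 (0.908). Over single cells within a library most pairs had weak correlations: the highest median Spearman rho of any pair was 0.188 (Igf2bp1 and Hmga1, 10 of 12 libraries above 0), and the lowest was -0.257 (Hmga2 and Mycn, 1 of 11 libraries above 0). For Trim71 and L1td1, the pair with the highest r, the median rho was -0.00065, with 6 of 12 libraries above 0.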

How the data were processed

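Single cells were sorted 1 to a well, amplified with a modified Smart-seq2 protocol and sequenced from single ends. The deposited values are raw read counts per gene name, made by the authors with Trim Galore 0.5.0, STAR 2.7.1a on GRCm38 (mm10) and featureCounts 1.6.1 on exons of GENCODE M23, without multi-mapped reads. Use of strand is not given in the sources used here, so reads of Lin28a, Trim71, Igf2bp1, Hmga1 and Hmga2 over at most 5.86% of their exon bases cannot be told from genes on the other strand. The 26 columns of no sample were not used, and doublets were not called.

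Counts of kept cells were summed by group and batch and scaled to CPM over all genes. Groups hold no labelled replicate cultures, so no p-value was made. Sums have exact Poisson and shares exact binomial (Clopper-Pearson) 95% intervals. Besides the 10 genes, those named are Dnmt3a and Dnmt3b, genes called in fixed lists (at most 4 in each direction) and the 3 most like genes of each of the 10. A few genes that this rule names are not reported here. Exceptions, chosen after their values were seen, are the genes read in cells with Hmga2. The 10 genes and all lists were chosen with earlier results of these data known. Alternatives changed the cell filter, batches, summing, thinning, denominator, scaling (edgeR 4.0.16, DESeq2 1.42.0, R 4.3.3), pseudocount and detection. Python 3.11.15 was used otherwise. The call rule was also run on simulated cells with no batch, plate or culture effect. Changes were planted only in widely detected genes, so that run does not bear on calls of rarer genes such as Prtg and Lin28b.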

Additional observations from a re-analysis of the deposited data

Results flagged for a closer look

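Hmga1 at day 9 moved in opposite directions in the mutants in both batches: 3AKO lay above WT by log2 ratios of 0.31 and 0.55, while 3BKO gave ratios of -0.75 and -0.50. It is listed here because each batch of 3AKO lay above WT and each batch of 3BKO below it. The difference between the mutants, 3BKO minus 3AKO, was -1.08 on the log2 scale over both batches (50.3 CPM against 107 CPM), and the difference was not tested.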

How the results depend on the processing

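Counts of the 10 genes called, of which 9 passed detection, were recomputed under 13 alternatives. In 3AKO against WT at day 9 the count of 0 became 3 in batch 2 alone (Lin28a and Myc higher, Lin28b lower). In 3BKO against WT at day 9 the count of 2 became 1 with a pseudocount of 10 CPM (Prtg), and 0 with cells thinned to 50000 reads or detection in 40% of cells, where only 7 and 6 of the genes passed detection. In 3BKO against 3AKO the count of 2 became 1 with TMM factors, size factors or a pseudocount of 10 CPM (Prtg), and 1 with detection in 40% of cells (Hmga1). In WT the day 9 against day 3 count of 2 became 4 in batch 1 alone and 5 in batch 2 alone. Under label 3BKO the day count of 3 became 7 in batch 1 alone, and at day 3 the count of 0 became 1 in batch 2 alone (Prtg). Other counts moved by at most 1.5 times. No called ratio changed sign, but of 80 ratios 10 had another sign in batch 1 alone, 18 in batch 2 alone and 11 with thinned cells; the cause was not tested. No paired analysis was possible because the groups hold no replicate cultures and no test was made; ratios were taken within each batch. Few reads limit the ratios of Prtg in 3BKO at day 9 (1 read) and of Hmga2. That 1 Prtg read was among 30287278 reads, while 3AKO at day 9 had 541 Prtg reads among 23858355.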
